A study of Homo sapiens with 6 samples.

Results

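The 10 genes described here encode cytokine and growth factor receptors that B-cell precursors and their leukemias can use: IL7R, FLT3, KIT, IL2RG, IL3RA, IL21R, IL10RA, IL4R, CRLF2 and IGF1R. They were chosen by name, and every catalogue probe of the array whose RefSeq accession maps to a member was taken. This gave 14 probes for the 10 genes, out of 19721 genes that catalogue probes could be matched to. The cells were REH, an established line from a human acute lymphoblastic leukemia of B-cell precursors (BCP-ALL), in which ETV6/RUNX1 is present and, per the study, the other ETV6 allele is lost. The control group held 3 arrays of REH cells that received non-targeting shRNA (short hairpin RNA), and the knockdown group held 3 arrays of REH cells with an shRNA against the ETV6/RUNX1 fusion. Per the methods, the hairpin of the control group was itself designed on ETV6 but missed the fusion transcript, both hairpins came in lentiviral vectors with a green fluorescent protein (GFP) gene, and GFP-positive cells of both groups were sorted. The replicates, numbered 1 to 3 in each group, are biological triplicates of a single cell line. The methods give a time for the sort, and the time at which RNA was harvested is not given in the sources used here.

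Most of these receptors have no enzyme activity of their own. A cytokine brings receptor chains together, the Janus kinases (JAK) bound to the chains become active, and STAT transcription factors are phosphorylated and move to the nucleus, where STAT5 induces, among others, the feedback inhibitors SOCS2 and CISH. IL2RG, the common gamma chain, is shared by the receptors for IL-2, IL-4, IL-7, IL-9, IL-15 and IL-21, so that IL4R, IL7R and IL21R each signal together with it. IL4R can pair with IL13RA1 instead, and that pair also binds IL-13. IL7R pairs with CRLF2 to bind TSLP, IL3RA is the ligand-binding chain that pairs with CSF2RB, and IL10RA pairs with IL10RB. FLT3, KIT and IGF1R are receptor tyrosine kinases. IL-7 receptor signaling drives growth of normal B-cell precursors, and CRLF2, IL7R and FLT3 are known sites of activating lesions in BCP-ALL.

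To show the DNA in front of the genes that the results turn on, the 250 bases before the start of 4 members are given from RefSeq, build GRCh38.p14. IL4R and IL2RG passed the test between knockdown and control, whereas IL21R and IL3RA differed between replicate 1 and the other replicates of both groups. For comparison, 3 motifs were searched on both strands, after the values were known: a RUNX motif (TGTGGT or TGCGGT), a STAT motif (TTCNNNGAA) and the C/EBP-ATF response element (CARE, TGATGNAA), which stands before many genes induced by amino acid shortage. Capitals mark the matches, and no match overlapped a match of another motif.
IL4R, chr16:27313724-27313973, plus strand: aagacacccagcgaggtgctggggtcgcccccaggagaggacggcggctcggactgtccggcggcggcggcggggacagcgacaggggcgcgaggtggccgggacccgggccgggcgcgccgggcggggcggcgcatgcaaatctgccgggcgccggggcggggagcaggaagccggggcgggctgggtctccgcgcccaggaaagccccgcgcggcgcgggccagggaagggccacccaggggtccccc
IL2RG, chrX:71111578-71111827, minus strand: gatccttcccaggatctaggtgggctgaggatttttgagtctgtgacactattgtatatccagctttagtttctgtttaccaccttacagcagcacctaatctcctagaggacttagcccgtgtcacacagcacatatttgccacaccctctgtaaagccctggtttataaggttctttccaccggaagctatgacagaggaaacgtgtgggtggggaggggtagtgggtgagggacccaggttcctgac
IL21R, chr16:27427021-27427270, plus strand: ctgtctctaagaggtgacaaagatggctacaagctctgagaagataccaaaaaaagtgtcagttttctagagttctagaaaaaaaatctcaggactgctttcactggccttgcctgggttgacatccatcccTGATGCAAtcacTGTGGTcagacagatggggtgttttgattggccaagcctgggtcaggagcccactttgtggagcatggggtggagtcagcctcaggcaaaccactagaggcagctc
IL3RA, chrX:1336535-1336784, plus strand: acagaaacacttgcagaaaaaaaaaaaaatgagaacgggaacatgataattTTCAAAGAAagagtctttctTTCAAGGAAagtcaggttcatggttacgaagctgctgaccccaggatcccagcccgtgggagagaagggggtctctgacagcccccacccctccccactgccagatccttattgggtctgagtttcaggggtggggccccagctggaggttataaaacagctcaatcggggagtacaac
The IL21R window held a CARE match, TGATGCAA, that began 118 bases before the start, and a RUNX match, TGTGGT, that began 106 bases before it. The IL3RA window held 2 STAT matches, TTCAAAGAA and TTCAAGGAA, which began 199 and 179 bases before the start, and no match of the other motifs. The windows of IL4R and IL2RG held none of these letters. Of all 27305 RefSeq promoter windows of this length, 16.1% held the RUNX motif, 6.8% the STAT motif and 3.2% the CARE motif. A total of 9 of the 10 members had such a window. Among the others, IL7R held a CARE match (TGATGTAA) and a RUNX match, FLT3 held a RUNX match (TGCGGT), and KIT, IL10RA and IGF1R held none. IL4R and IL21R are neighboring protein-coding genes on chromosome 16.

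Values are given on a generalised log2 scale, on which 1 unit is close to a 2-fold change where a probe is bright and stands for more where it is dim. A level of a probe can be set against that of the same probe on another array, and not against another probe. Of the 14 probes, 11 probes of 9 genes passed the filter against the negative control spots and were tested with the 27425 probes retained in all. A probe is said to be called where the adjusted p (limma, Benjamini-Hochberg over all 27425 probes) was under 0.05. As a check of the labels, the ETV6 probe A_33_P3356325 had a control mean of 8.11 ± 0.23 (SD, n = 3) and a knockdown mean of 7.41 ± 0.11, without overlap between the groups (-0.70, SE 0.14, limma adjusted p = 0.0513). That lies just above the threshold, and whether the probe measures the fusion was not analysed here. A second ETV6 probe was not well above background, and the 5 RUNX1 probes differed by -0.26 to 0.03 (limma adjusted p from 0.510 to 0.945).

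In knockdown, 2 of the 11 receptor probes were called, IL4R and a probe of IL2RG, and both were higher. Over all retained probes 1.74% were called, 0.459% higher and 1.28% lower. The groups did not overlap for 6 of the 11 receptor probes, 3 higher and 3 lower, against 18.9% of all probes (9.02% higher and 9.87% lower). The 3 lower ones include a KIT probe that passed the filter through its control arrays and was not well above background in knockdown. With 3 arrays against 3, the smallest two-sided p of an exact permutation test is 0.1, and the calls therefore depend on limma's pooling of the variance over probes. The 8 probes that were lower by their means had differences of -0.56 to -0.06, and none was called. The median difference of the 11 probes was -0.20, against -0.0015 for all probes. In RNA from a whole culture, a change in the share of cells that express a gene and a change in RNA per cell cannot be told apart.

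**Figure D1:**
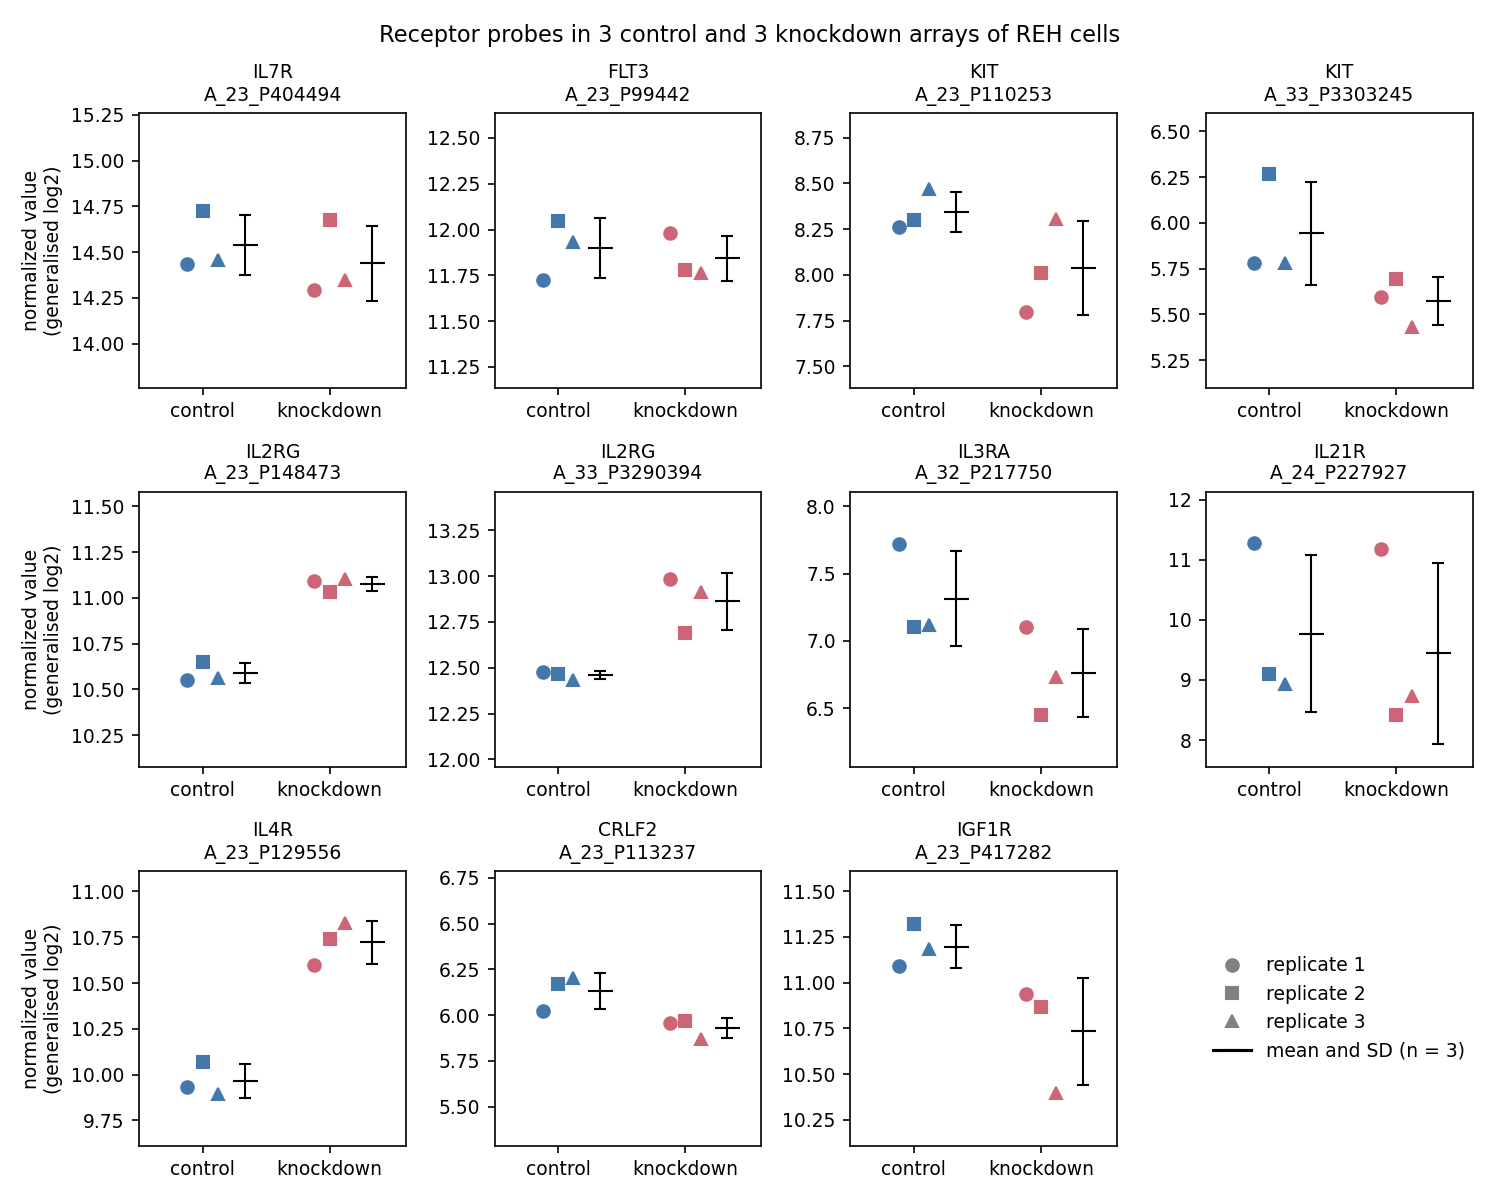
Normalized values (vertical axis, generalised log2, each panel with its own range) of the 11 retained receptor probes on the 3 control arrays (blue) and 3 knockdown arrays (red), with marker shape for the replicate number and bars for mean and SD. The IL4R probe and both IL2RG probes lie higher on all knockdown arrays, and the replicate 1 arrays of IL21R stand apart in both groups.

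IL4R, the chain that binds IL-4, showed the clearest change. The probe (A_23_P129556, NM_000418) measured 9.93, 10.07 and 9.90 in control replicates 1 to 3, and 10.60, 10.74 and 10.83 in knockdown replicates 1 to 3. All knockdown arrays lay above all control arrays, and the same-numbered pairs differed by 0.66, 0.67 and 0.93. The difference was 0.76 (SE 0.11, 95% interval 0.51 to 1.00, limma adjusted p = 0.0130), a 1.69-fold increase. Leaving out control replicate 2 (0.0511) or 3 (0.0645) ended the call, as did leaving out replicate 2 (0.0705) or 3 (0.0654) of knockdown, and the size then stayed between 0.70 and 0.81. Control replicates 1 and 2 lay in a different row of the slide from the other 4 arrays, and with the row as a term, which sets control replicate 3 against the knockdown arrays, the difference was 0.83 with adjusted p = 0.0973.

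IL2RG, the partner chain of IL4R, was measured by 2 probes of NM_000206, and both were higher on every knockdown array than on any control array. For A_23_P148473 the control arrays gave 10.55, 10.65 and 10.56 and the knockdown arrays 11.09, 11.03 and 11.10. This difference of 0.49 (SE 0.09, limma adjusted p = 0.0420), a 1.40-fold increase, was called. For A_33_P3290394, the brighter probe, control arrays gave 12.48, 12.47 and 12.43 and knockdown arrays 12.99, 12.69 and 12.91. Its difference of 0.40 (SE 0.11, limma adjusted p = 0.149) had the same direction and was not called. The call of the first probe lies close to the threshold. Leaving out any of the 6 arrays ended it (adjusted p from 0.0658 to 0.165), and so did averaging the 2 probes (0.0710), using the deposited values (0.0529) or adding the slide row as a term (0.301), while the difference stayed between 0.45 and 0.52 in these fits.

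The other members that signal with IL2RG, IL7R and IL21R, did not pass the test, nor did CRLF2. IL7R (A_23_P404494, NM_002185), which drives growth of B-cell precursors, gave 14.44, 14.73 and 14.46 in control and 14.29, 14.67 and 14.35 in knockdown. The ranges overlapped, and the difference was -0.10 (SE 0.14, 95% interval -0.42 to 0.22, limma adjusted p = 0.817). With a single array left out it ran from -0.22 to -0.0068. CRLF2, the partner of IL7R for TSLP, had a probe (A_23_P113237) with 6.02, 6.17 and 6.20 in control and 5.95, 5.97 and 5.87 in knockdown. These groups did not overlap, but the difference of -0.20 was not called (SE 0.10, limma adjusted p = 0.455). A second CRLF2 probe of the same transcript (A_33_P3298139) was well above background on 1 array of each group and was not tested. IL21R is described with the replicate 1 arrays, because its knockdown difference (-0.33, SE 0.82, limma adjusted p = 0.907) was small beside the spread between replicates. Its same-numbered pairs differed by -0.10, -0.68 and -0.20, and with the replicate number as a block it was not called (SE 0.13, limma adjusted p = 0.256).

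IL3RA, the alpha chain of the IL-3 receptor, depended on whether the replicate numbers were used. The probe (A_32_P217750, NM_002183) gave 7.72, 7.10 and 7.12 in control and 7.10, 6.45 and 6.73 in knockdown. Every knockdown array lay below the control array of the same number, although the groups overlapped. Without the pairing the difference was -0.56 (SE 0.22, limma adjusted p = 0.339) and was not called, and it was -0.35 without control replicate 1. With the replicate number as a block it was called (SE 0.10, adjusted p = 0.0342), so that the block called 3 of the 11 receptor probes, 2 higher and 1 lower, against 3.78% of all probes (1.36% higher and 2.43% lower). Its partner CSF2RB, the common beta chain, was not called by either of its probes, which differed by -0.04 and 0.04.

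IL10RA (A_23_P203173, NM_001558), the ligand-binding chain of the IL-10 receptor, gave 4.81 to 5.10 in control and 4.87 to 5.10 in knockdown. No array had it well above background, so the arrays give no measured change for it.

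Among the receptor tyrosine kinases none was called. IGF1R (A_23_P417282, NM_000875), the receptor for insulin-like growth factors, gave 11.09, 11.32 and 11.18 in control and 10.94, 10.87 and 10.40 in knockdown. All knockdown arrays lay below all control arrays, and knockdown replicate 3 was the lowest. The difference was -0.46 (SE 0.16, limma adjusted p = 0.257), and -0.29 without that array. KIT, the receptor for stem cell factor, had 3 probes. The probe printed in 5 spots (A_23_P110253, NM_000222) gave 8.26, 8.30 and 8.47 in control and 7.80, 8.01 and 8.31 in knockdown, with overlap between the groups and a difference of -0.30 (SE 0.14, limma adjusted p = 0.443), which was -0.18 without knockdown replicate 1. A probe of another KIT transcript (A_33_P3303245, NM_001093772) was well above background on 2 of 3 control arrays and on no knockdown array. It gave 5.78, 6.27 and 5.78 in control, while the values of 5.59, 5.69 and 5.43 in knockdown are upper bounds, and the difference of -0.37 (-0.21 without control replicate 2) was not called (limma adjusted p = 0.376). The remaining KIT probe, A_33_P3407034, stayed within background on all 6 arrays. FLT3 (A_23_P99442, NM_004119), mutated in a part of acute leukemias, gave 11.72, 12.05 and 11.93 in control and 11.98, 11.78 and 11.77 in knockdown. The groups overlapped, with a difference of -0.06 (SE 0.12, 95% interval -0.34 to 0.22, limma adjusted p = 0.885). The difference was 0.015 without control replicate 2, and -0.22 with both replicate 1 arrays left out (limma adjusted p = 0.305).

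**Figure D2:**
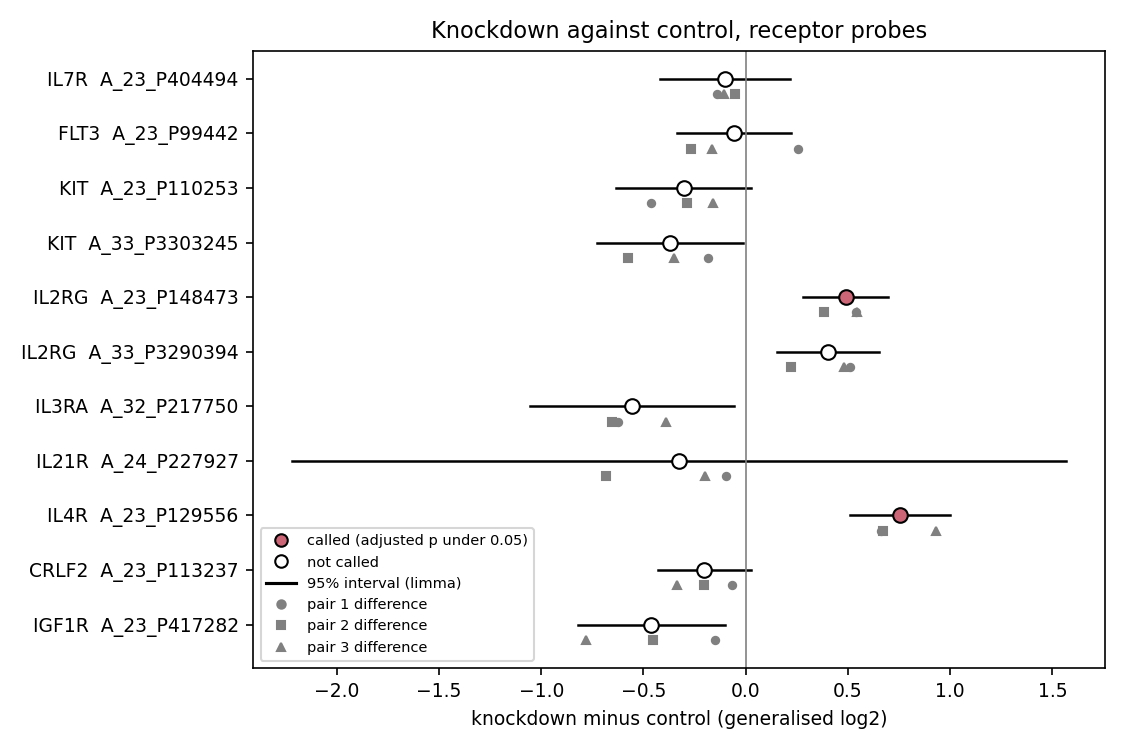
Knockdown minus control (horizontal axis, generalised log2) for the 11 retained receptor probes, with 95% intervals from limma as lines, called probes filled, and the differences of the same-numbered pairs as small grey markers. IL4R (0.76) and an IL2RG probe (0.49) are called, and the interval of IL21R runs from -2.22 to 1.57.

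IL21R, the IL-21 receptor, and IL3RA differed between replicate 1 and the other replicates in both groups. The IL21R probe (A_24_P227927, NM_181078) gave 11.27 in control replicate 1, against 9.10 and 8.94 in control replicates 2 and 3. In knockdown the same pattern was seen, with 11.17 in replicate 1 against 8.42 and 8.74. Replicate 1 was thus higher by 2.25 in control and by 2.60 in knockdown, and by 2.42 in a fit over both groups (SE 0.13, limma adjusted p = 0.000332), a 5.36-fold difference. For IL3RA the shift was 0.61 in control and 0.51 in knockdown, and 0.56 in the fit over both groups (SE 0.11, limma adjusted p = 0.0284). These were the 2 receptor probes of 11 that were called in this contrast, against 5.66% of all probes, 3.65% higher and 2.01% lower. The call of IL21R was kept in all 15 alternatives tried for this contrast, whereas that of IL3RA was lost in 9 of them. Among these were the fits without control replicate 1 (adjusted p = 0.121), control replicate 2 (0.0875), control replicate 3 (0.0612), knockdown replicate 1 (0.145) and knockdown replicate 2 (0.0768).

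The other 9 receptor probes had a replicate 1 shift of -0.24 to 0.11, and none of them was called. The shift had the same sign in both groups for 6 of the 11 probes, against 64.2% of all probes. No receptor probe differed between the groups in the size of the shift by limma (0.416% of all probes were called), and 1 of 11 had an unadjusted p under 0.05, against 8.31% of all probes. That was FLT3, with a shift of -0.27 in control and 0.21 in knockdown, a difference of 0.47 (SE 0.18, limma adjusted p = 0.572). For IL21R the shift differed by 0.35 (SE 0.24, limma adjusted p = 0.723). With both replicate 1 arrays left out, the knockdown difference of IL21R was -0.44 (limma adjusted p = 0.156), that of IL4R 0.80 (0.0166) and that of the called IL2RG probe 0.46 (0.0732).

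Genes of the amino acid stress response, many of them targets of ATF4, shifted on the same arrays. The list was made because earlier results of these arrays had shown such genes, so its count is no independent evidence. A total of 15 of its 18 retained probes, from 13 of 14 genes, were called higher in replicate 1, against 3.65% of all probes. The median shift of the 18 probes was 1.64, against 0.0060 for all probes. TRIB3, a pseudokinase induced by amino acid shortage, gave 15.36, 12.23 and 12.51 in control and 16.41, 13.32 and 13.66 in knockdown. Its replicate 1 shift was 2.95 (limma adjusted p = 0.000191), and that of GPT2, a mitochondrial alanine transaminase, was 3.10 (6.53e-05). VLDLR was the member of the list without a call, with a shift of -0.02. The summed level of the whole list ran from 15.5 to 17.4 in control and from 15.9 to 17.8 in knockdown. The part of this response in the IL21R and IL3RA shifts was not tested. In the knockdown contrast none of the 18 probes was called, and VLDLR, with the lowest p, had -0.22 (limma adjusted p = 0.60). With the replicate block 4 probes were called higher, against 1.36% of all probes, and with both replicate 1 arrays left out 2 were, against 0.806% of all probes.

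**Figure D3:**
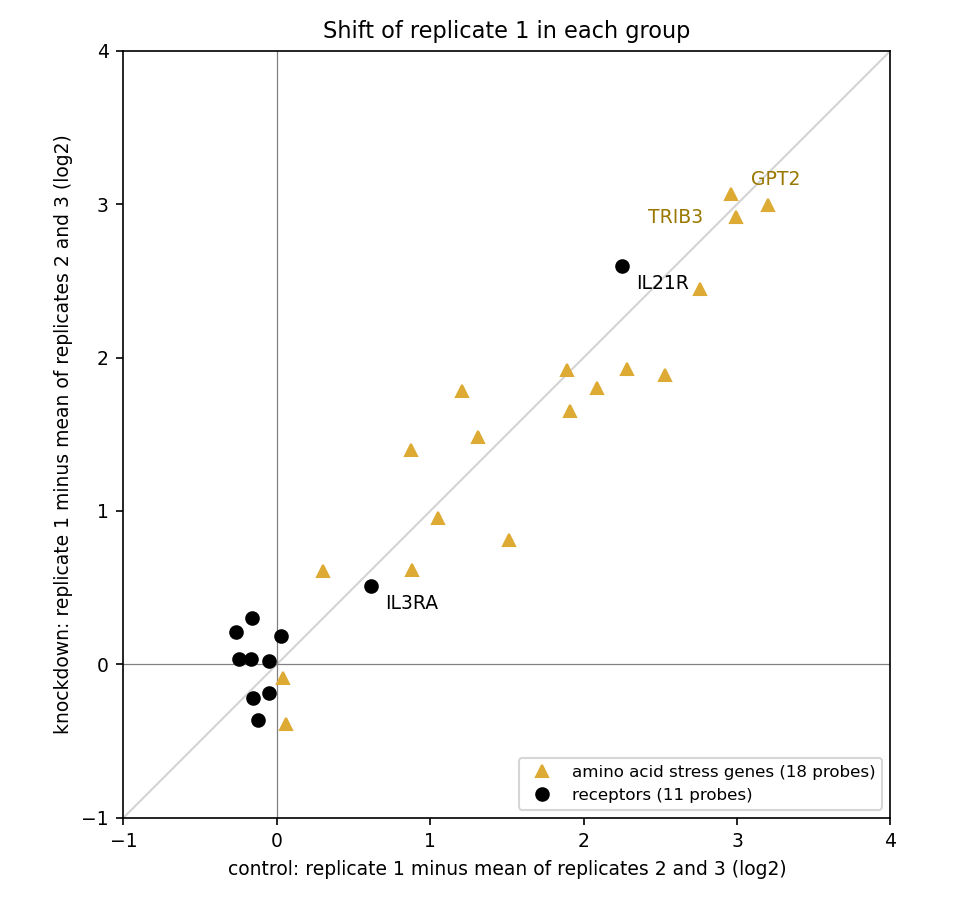
Replicate 1 minus the mean of replicates 2 and 3 (log2), in control on the horizontal axis and in knockdown on the vertical axis, for 11 receptor probes (black circles) and 18 probes of amino acid stress genes (yellow triangles). IL21R, at 2.25 and 2.60, lies among the amino acid stress genes near the line of equal shift, IL3RA lies at 0.61 and 0.51, and the other receptor probes lie near 0.

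Some genes of the receptor pathways were called higher in replicate 1, as were 3.65% of all probes. Among other receptor chains, these were 2 of 29 probes, CSF3R (0.82, limma adjusted p = 0.00485) and PDGFRB (0.61, 0.0319), and among kinases, STAT factors and adaptors it was 1 of 22, JAK3 (0.54, 0.0331 for A_24_P59667). Of 24 probes of negative regulators, 5 were called, from PTPRC (0.59 to 0.61 for 3 probes), the gene for the phosphatase CD45, SH2B3 (0.59, 0.0168), an adaptor that restrains JAK2, and SPRY2 (0.43, 0.0382), an inhibitor of receptor tyrosine kinase signaling. No probe of these lists was called lower in replicate 1. Markers of cell types were called in the same contrast: LCK with 2 of 8 T-cell probes (0.98 and 0.95) and CSF3R and ITGAM (0.61) with 2 of 4 myeloid probes were higher, and IGLL1 (-0.57) and MME (-0.52), with 1 probe each of 16 B-cell precursor probes, were lower. No erythroid or megakaryocyte probe was called. The median shift was -0.05 for the 8 T-cell probes, 0.47 for the 4 myeloid probes and 0.08 for the 16 B-cell precursor probes. Over all probes 3.65% were called higher and 2.01% lower. The part of these markers in the receptor shifts was not tested.

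To place these receptors in their pathways, lists of other receptor chains, ligands, kinases and STAT factors, feedback regulators and STAT5 response genes were described next to them. Of 33 other receptor genes described, 32 had a probe, and 29 probes of 20 genes were retained. Of these, 2 were called, both lower in knockdown, against 1.28% of all probes called lower. The median difference of the 29 probes was -0.04. IL13RA1, which pairs with IL4R in the receptor that also binds IL-13, gave 6.88, 6.91 and 6.83 in control and 6.19, 5.78 and 5.81 in knockdown, a difference of -0.94 (SE 0.13, limma adjusted p = 0.0112). CSF3R, the receptor for granulocyte colony-stimulating factor, fell from 11.07 ± 0.43 to 9.49 ± 0.52 (-1.58, SE 0.29, limma adjusted p = 0.0391). The IL13RA1 call did not hold when control replicate 2 or either of knockdown replicates 2 and 3 was left out (adjusted p from 0.0591 to 0.0668), with the slide row (0.142) or with spike-in scaling (-0.59, 0.142). With normexp and quantile normalization its difference was -0.56 (adjusted p = 0.0197), and with the processed signal -1.57 (0.0165). The CSF3R call held without knockdown replicate 1 but not without any other single array (0.0793 to 0.172), nor with the slide row (0.391). CSF3R was called with the replicate block (limma adjusted p = 0.00125) and with both replicate 1 arrays left out (-1.63, 0.00138). IL10RB, the partner of IL10RA, had a difference of 0.39 (limma adjusted p = 0.0993).

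Of 14 ligands, 2 were retained and none was called. IL15 measured 8.12 ± 0.04 in control and 7.74 ± 0.18 in knockdown (-0.37, limma adjusted p = 0.214), and FLT3LG, the FLT3 ligand, differed by 0.13 (0.817). The genes for IL-4, IL-7, IL-21, IL-3, TSLP and stem cell factor were among the 12 that were not retained.

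Among 22 retained probes of 17 receptor-proximal kinases, STAT factors and adaptors, 1 was called, lower, against 1.28% of all probes called lower. The median difference was 0.03. STAT5A fell, with 8.56, 8.88 and 8.70 in control against 8.13, 7.88 and 7.99 in knockdown (-0.71, SE 0.12, limma adjusted p = 0.0286). STAT5B, its close relative, measured 9.33 ± 0.05 in control and 9.74 ± 0.08 in knockdown, a difference of 0.40 that was not called (SE 0.10, limma adjusted p = 0.103). STAT6, which carries the IL-4 signal, differed by -0.08 (limma adjusted p = 0.868), and JAK3, the kinase bound to IL2RG, by -0.06 and 0.05 with its 2 probes. The STAT5A call ended when replicate 2 or 3 of either group was left out (0.104 to 0.138), with the slide row (0.259) and with spike-in scaling (-0.36, 0.285).

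Of 24 retained probes of 19 negative regulators, 1 was called, lower, against 1.28% of all probes called lower. SOCS2, a feedback inhibitor induced by STAT5, gave 13.34, 13.09 and 13.13 in control and 11.53, 11.24 and 11.34 in knockdown. All knockdown arrays lay far below all control arrays, with a difference of -1.82 (SE 0.12, limma adjusted p = 0.000587), and the call was kept in all 17 alternatives. CISH, induced in the same way, fell short of the threshold, with 7.90 ± 0.03 in control and 7.43 ± 0.08 in knockdown (-0.48, SE 0.09, limma adjusted p = 0.0542), whereas the replicate block called it (0.0472). The median difference of the 24 probes was -0.09.

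Of 11 retained probes of 9 STAT5 response genes, 1 was called, lower, against 1.28% of all probes called lower. The median difference was 0.10. CCND2, the cell cycle gene for cyclin D2, gave 10.05, 9.32 and 8.95 in control and 7.93, 6.70 and 6.70 in knockdown, a difference of -2.33 (SE 0.38, limma adjusted p = 0.0250). It was also higher in replicate 1 of both groups (1.07, limma adjusted p = 0.00785). The call in knockdown ended when control replicate 1 or 2, or replicate 2 or 3 of knockdown, was left out (0.0585 to 0.124) and with the slide row (-1.84, 0.288). The call was kept with the replicate block (limma adjusted p = 0.00103) and with both replicate 1 arrays left out (-2.44, 0.00115). Other genes of this list differed little: MYC had -0.18, BCL2 0.22 and 0.10, PIM1 0.19, BCL6 0.08 and MCL1 -0.02, and none of these was called.

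**Figure D4:**
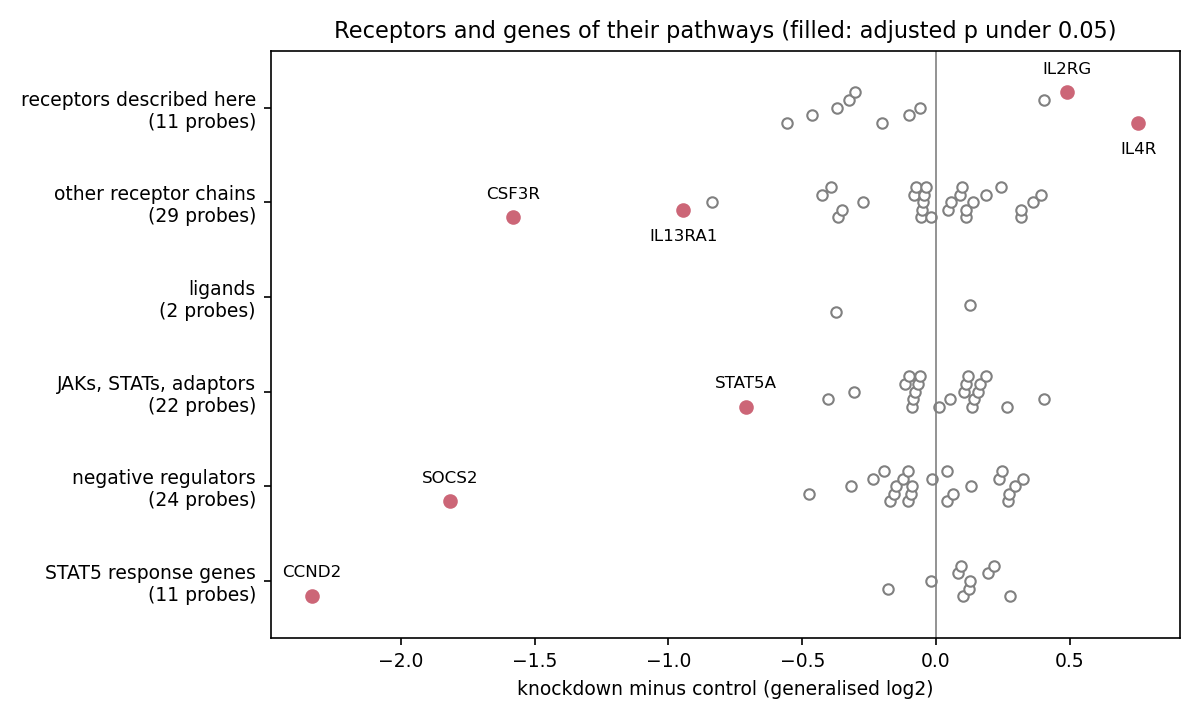
Knockdown minus control (horizontal axis, generalised log2) of every retained probe of the receptors and of 5 lists of their pathways, with called probes filled and named. SOCS2 (-1.82) and CCND2 (-2.33) lie far to the left of the other probes of their lists.

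The labelled cell type was checked against markers. Of 11 B-cell precursor genes described, 10 were retained, CD79A, IGLL1, RAG1 and DNTT among them, and VPREB1 was not. None of their 16 probes was called, although 14 of them were higher in knockdown by their means (median 0.22). With the replicate block 4 were called higher (1.36% of all probes), and with both replicate 1 arrays left out 2 were (0.806% of all probes). CD22 had the lowest p, with 0.67 (limma adjusted p = 0.0540, with the block 0.0260). The summed level of the list ran from 17.76 to 17.84 in control and from 17.97 to 18.18 in knockdown. Of 7 myeloid genes with a probe, 4 were retained and 2 were called, both lower, against 1.28% of all probes called lower. These 2 were CSF3R, which is also in the list of other receptors, and MPO, the gene for myeloperoxidase. MPO fell from 13.95 ± 0.08 to 11.93 ± 0.33 (-2.02, SE 0.16, limma adjusted p = 0.00107), while CD33, CEBPA and ELANE were not retained. Of the 4 retained myeloid probes, 3 were lower and 1 was higher in knockdown by their means. The summed level of the myeloid list, most of which came from the MPO probe, ran from 14.06 to 14.30 in control and from 12.05 to 12.70 in knockdown. No T-cell probe and no erythroid or megakaryocyte probe was called. CD3E, which no array had well above background, and ITGA2B had the lowest p of these lists (limma adjusted p = 0.393 and 0.306). The part of these markers in the receptor differences was not tested.

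For the 3 receptors with the lowest p in knockdown, the genes with the most similar values over the 6 arrays were ATP6V0E2-AS1 (Pearson's r = 0.997), CLCN5 (0.994) and OFD1 (0.993) for IL4R. For the brighter IL2RG probe they were TBC1D10A (0.999), COPG1 (0.992) and GH1 (0.992). For IGF1R they were MBNL1 (0.996), CRACD (0.993) and TCEAL8 (0.993). These were picked as the highest correlations with any named gene, over 6 points that share their arrays and groups, and are given as a description. ATP6V0E2-AS1 and CLCN5 were called higher in knockdown (0.74 and 0.52), and the other 7 genes were not called.

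Facts of the arrays bear on all of these values. Median raw intensity ran from 66 to 75 per array, against 42.3 to 48 for negative control spots, and 45.7% to 50.9% of probes were well above background, the lowest share on control replicate 3. No spot was saturated. The number of arrays limits the precision. Directions are relative to the bulk of probes: scaling on spike-in probes added 0.35 to every difference, which left IL4R and IL2RG higher and IL3RA and IGF1R lower, and turned IL7R, FLT3, IL21R, CRLF2 and the KIT probe of 5 spots from lower to higher, none of them called.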

How the data were processed

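RNA of 6 REH samples, 3 control and 3 knockdown, was measured on 1-color Agilent arrays on a single slide. Per the file headers, spot intensities were extracted by the authors with Agilent Feature Extraction 10.7.1.1. These deposited intensities were not normalized between arrays. The authors also deposited normalized log2 values of 27869 probes (made, per the methods, with VSN, a variance stabilizing transformation, then background subtraction and a comparison with negative controls), which were used as an alternative.

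Here the VSN model was written anew and fitted to the median spot intensity, keeping the 0.9 quantile of least squares. Outlier spots were left out, and a probe's spots were averaged. Retained probes had no missing value and exceeded 1.1 times the normalized 0.95 quantile of the 308 negative controls on at least 60% of either group's arrays. The test between groups was limma 3.58.1, run in R 4.3.3 (two-sided, no block), with Benjamini-Hochberg adjustment. The replicate 1 contrast had the group as a second term. The procedure was tested on simulated data. A summed level is the log2 of the sum over a list's probes on the linear scale.

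Replicate numbers pair the samples: deviations from group means correlated across probes with r = 0.426, 0.287 and 0.204 for numbers 1 to 3. The labels give no batch for the numbers. No arrays held identical values.

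Genes were named by RefSeq accession, through a table of GRCh38.p14, for 25728 of 34134 catalogue probes. All members are named. From each list every gene called in the knockdown contrast without the block, and otherwise the gene of lowest p there, is named, with genes similar to 3 members and ETV6 and RUNX1. Other genes were named after their values were seen. For each of 2 lists, 1 gene is not reported here and was left out of that list's counts. Members and lists were chosen with earlier results of these data known.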

Additional observations from a re-analysis of the deposited data

How the results depend on the processing

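In 17 alternatives for the knockdown contrast, IL4R and both IL2RG probes kept their direction, IL4R was called in 12 and the called IL2RG probe in 5. Of the receptor probes, 2 were called as reported, 1 with the 75th percentile of the processed signal, the deposited values, no filter, genes averaged or both replicate 1 arrays left out, none with the slide row as a term (limma, adjusted p = 0.0973 for IL4R and 0.301 for IL2RG), and 0 to 1 with a single array left out. With the replicate block 3 were called, IL3RA being added, and no other receptor call changed. Over all probes 477 were called, 1029 with spike-in scaling (871 higher, 158 lower), 224 without a filter, 1038 with the replicate block, 234 with the slide row, and 191 to 553 with a single array left out. For the replicate 1 contrast, 2 receptor probes were called, and 1 with the processed signal, spike-in scaling, no filter or the slide row, and 1 to 2 with a single array left out. For the difference in that shift 0 were called, and 2 with spike-in scaling (IGF1R, 1.05, limma adjusted p = 0.0364, and FLT3, 1.05, 0.0355). Directions turned under spike-in scaling for IL7R (0.25), FLT3 (0.29), KIT (A_23_P110253, 0.048), IL21R (0.026), CRLF2 (0.15) and VLDLR (0.13), where the scaling adds 0.35 to each difference. With a single array left out FLT3 ran from -0.15 to 0.015 and turned without control replicate 2, and IL21R ran from -1.19 to 0.42. IL21R turned when control replicate 1 (0.42), or replicate 2 (0.19) or 3 (0.025) of knockdown, was left out, and with the slide row (0.50). These IL21R fits did not use the pairing and left the replicate 1 arrays unbalanced between the groups. With the replicate block the IL21R difference was -0.33. SOCS2 and MPO were called in all 17 alternatives, IL13RA1 in 12, STAT5A and CCND2 in 9 each and CSF3R in 8. Other causes were not tested. Counts of the lists with both replicate 1 arrays left out were chosen after seeing the data, and 2 of them moved, from 0 to 2 for amino acid stress genes and for B-cell precursor markers, while calls over all probes went from 477 to 711 (221 higher, 490 lower). IL10RA and a probe each of KIT and CRLF2 lay too close to background to be tested.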
